A study of Homo sapiens with 12 samples.

Results

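The comparison described here is the difference between a BRAF inhibitor-sensitive colon cancer line and its resistant derivative in how their transcriptomes responded to induction of a MUC1 hairpin. LS411N is a human colon cancer line known to carry a mutant BRAF, and LS411N-BR is its derivative that tolerates BRAF inhibitors. A short hairpin RNA against MUC1 under a doxycycline-inducible promoter, with resistance to puromycin, was present in both lines and so in the control groups too. LS411N was grown in serum-supplemented RPMI and LS411N-BR in the same medium with 4 µM of a BRAF inhibitor, so line and inhibitor cannot be told apart in what follows. Each line was given either 500 ng/ml doxycycline, the groups whose genotype is labelled MUC1-C knockdown, or 0.1% DMSO as vehicle, the groups labelled Control, so doxycycline itself and the hairpin cannot be told apart either. Each of the 4 groups had 3 libraries, made from triplicate cultures for which separate days are not stated, so that p-values measure only the spread between these samples, which may be technical. All 12 libraries of the series entered the comparison. The quantity reported is the difference of response, which is the log2 change with doxycycline in LS411N-BR minus the log2 change in LS411N. It was taken on log2(TPM + 1) after the libraries of each table had been rescaled by median-of-ratios factors. It was tested with limma over the 11674 of 25540 shared genes that reached 1 TPM (a unit of transcript abundance scaled to gene length and library total) in at least 3 libraries. Genes with an adjusted p under 0.05, by the Benjamini-Hochberg method over all genes tested, are termed called. The TPM given below are rescaled in this way. Since the tables of the lines were normalized separately, levels in the lines are set side by side without a test.

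MUC1 is a transmembrane mucin of epithelial surfaces, whose C-terminal subunit MUC1-C spans the membrane and is known to act with growth factor receptors and transcription factors. BRAF is a kinase of the RAS, RAF, MEK and ERK cascade, and an inhibitor of the mutant kinase lowers ERK signalling in cells that depend on it. The colonic epithelium renews itself from WNT-driven stem cells at the crypt base, whose progeny become absorptive colonocytes with a brush border or secretory cells such as mucus-producing goblet cells. Colon cancer lines keep parts of these programmes, and genes of each were followed here.

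The targeted gene fell in both lines. MUC1 lies at chr1:155185824-155192916 on GRCh38 in GENCODE 29, on the minus strand. In LS411N it was measured at 5.22, 6.76 and 3.91 TPM without doxycycline and at 0.931, 0.777 and 0.981 TPM with it. In LS411N-BR the values were 4.07, 4.04 and 4.66 TPM without and 0.619, 0.373 and 0.411 TPM with doxycycline. No treated library overlapped an untreated one in either line. The change was -1.71 on the log2 scale in LS411N (limma adjusted p = 3.38e-07) and -1.84 in LS411N-BR (limma adjusted p = 1.06e-07). Their difference was -0.14 (SE 0.18, limma adjusted p = 0.691), which does not show that the reductions were equal, since both treated groups were below 1 TPM, where the scale is compressed. As a ratio of group means the reduction was 5.90-fold in LS411N and 9.10-fold in LS411N-BR.

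Nearly all genes called in both lines changed in the same direction. Within LS411N 2850 genes rose with doxycycline (24.4% of those tested) and 2436 fell (20.9%). Within LS411N-BR 3130 rose (26.8%) and 3158 fell (27.1%). These shares are the background for the numbers of list members that rose or fell within a line below. Of the 4034 genes called in both lines, 3949 changed in the same direction, 2091 upward and 1858 downward, and 85 changed in opposite directions. Across all genes tested the responses of the lines had a Pearson r of 0.788 and a Spearman rho of 0.767, given as a description, since genes are not independent replicates. The difference of response was called for 1256 genes (10.8%), of which 510 were more positive in LS411N-BR (4.37%) and 746 more negative (6.39%). At a difference of at least 1 on the log2 scale, 19 genes were called more positive (0.163%) and 22 more negative (0.188%). The median size of a called difference was 0.34, against a median standard error of 0.080. In all 1256 called genes the treated and untreated libraries were separate in at least 1 line, and in 726 of them in both. The share over all genes tested was not counted, so separate groups noted below describe the called genes and add nothing to a call.

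By the calls within each line, the called differences took 3 main forms. The largest classes were changes called within LS411N-BR alone, with 284 genes that fell and 166 that rose there. Next came genes that moved the same way in both lines but further in LS411N-BR, with 203 that fell and 189 that rose. Changes called in LS411N alone numbered 117 upward and 87 downward, and those shared but larger in LS411N numbered 82 upward and 41 downward. In 60 genes LS411N rose and LS411N-BR fell, in 25 the reverse held, and 2 were called in neither line. Among the 3949 genes called the same way in both lines, 2456 (62.2%) changed by more in LS411N-BR.

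**Figure D1:**
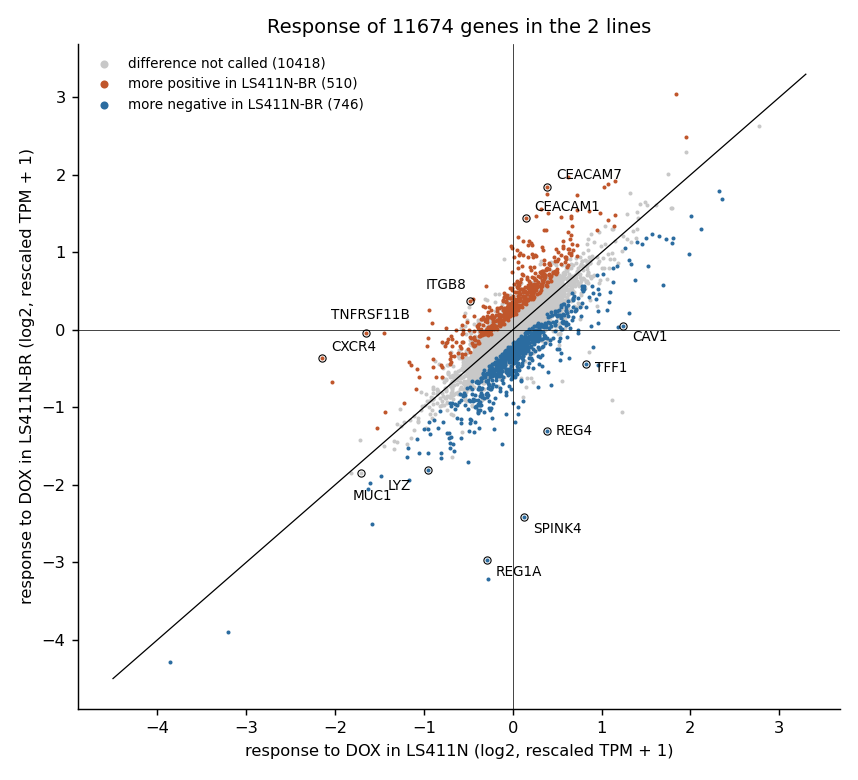
Each point is 1 of 11674 genes, placed by its response to doxycycline in LS411N (horizontal axis) and in LS411N-BR (vertical axis), both as log2 differences of rescaled TPM + 1, with colours for the 510 genes called more positive and the 746 called more negative in LS411N-BR. The diagonal marks equal responses. Most points lie along it, and MUC1 sits close to it, whereas REG1A, SPINK4 and REG4 lie far below it and CXCR4, CEACAM7 and CEACAM1 above it.

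The counts depended on the scaling and on single libraries. Short RNA genes (small nuclear, small nucleolar and similar classes) held between 46.4 and 57.4% of the summed TPM of a library. The lowest share was in replicate 3 of untreated LS411N, whose companions both had 57.4%. That library also stood apart over all genes, with SDs of the log2 difference to its companions of 0.219 and 0.223, where the 10 remaining within-group pairs ranged from 0.0956 to 0.121. Without it 1022 genes were called more positive and 1357 more negative. Leaving out other single libraries lowered the counts by more than 1.5 times in 4 cases, to 268 and 415 without treated LS411N-BR replicate 1, 277 and 474 without treated replicate 3, 320 and 488 without untreated LS411N-BR replicate 1 and 330 and 486 without untreated replicate 3. With TPM as deposited, where the median difference over all genes moved from -0.013 to 0.11, 162 genes were called more positive and 85 more negative, so the excess of negative calls belongs to the rescaled values only. Of these, 160 and 84 had been called the same way after rescaling.

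Because 1 TPM was added before the logarithm, a gene near 0 in a line cannot show a large change there. Of the 510 genes more positive in LS411N-BR, 80 stayed below a mean of 1 TPM in both groups of a line, and in 20 of those 80 the ratio of the fold changes of the group means pointed the other way. Among the 746 more negative genes the corresponding numbers were 51 and 3. Where both lines reached 1 TPM, the ratio pointed the other way in 4 of 430 more positive and 1 of 694 more negative genes. Such cases are named below where they concern a gene described.

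Genes of absorptive colonocytes were the list with the highest share of members called more positive in LS411N-BR. Of 26 list members tested, 12 were called more positive there and 4 more negative, with a median difference of 0.24 against -0.013 over all genes. The called shares over all genes were 4.37% and 6.39%. The 12 were CEACAM7, CEACAM1, SLC26A3, GUCA2A, ANPEP, FABP2, MUC13, CDHR5, ALPI, SLC9A3, CDHR2 and KLF4, and the 4 were CEACAM6, FABP1, LGALS4 and CEACAM5. Within LS411N 17 of the 26 rose and 3 fell, and within LS411N-BR 20 rose and 4 fell. The list's positive count rested in part on genes that were low in LS411N: it was 6 when only genes that reached 1 TPM in 3 libraries of each line were tested, 5 with a pseudocount of 0.1 TPM and 3 with both. It was 9 with TPM as deposited and 7 without treated LS411N-BR replicate 1 or without treated replicate 3. The negative count was 7 without untreated LS411N replicate 3 and 2 without untreated or treated LS411N replicate 1, untreated LS411N-BR replicate 1 or 3 or treated LS411N-BR replicate 3.

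CEACAM1, a cell adhesion glycoprotein of the colonocyte surface at chr19:42507304-42561234, had the smallest adjusted p of all genes described here. Its level in LS411N was 4.51, 4.43 and 4.47 TPM without doxycycline and 5.19, 4.95 and 5.001 TPM with it. In LS411N-BR it was 10.8, 10.5 and 11.1 TPM without and 30.6, 30.8 and 31.6 TPM with doxycycline. All treated libraries lay above all untreated ones in both lines, but by a small step in LS411N and a large one in LS411N-BR. The group means rose 1.13-fold in LS411N and 2.87-fold in LS411N-BR, a difference of response of 1.29 (SE 0.052, limma adjusted p = 3.69e-08). MUC13, a transmembrane mucin of the intestinal surface, was already abundant. It stood at 98.3, 99.7 and 101 TPM in untreated and 105, 101 and 103 TPM in treated LS411N, and at 209, 218 and 215 TPM in untreated and 340.4, 313 and 341 TPM in treated LS411N-BR. The change in LS411N missed the threshold (limma adjusted p = 0.334), and that in LS411N-BR was 1.55-fold, a difference of 0.58 (SE 0.056, limma adjusted p = 5.31e-05).

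Further brush border and transport genes were called more positive in LS411N-BR. ANPEP, the brush border aminopeptidase N, went from 0.566, 0.656 and 0.568 TPM to 0.876, 0.855 and 0.855 TPM in LS411N and from 21.1, 21.7 and 21.7 TPM to 44.6, 42.9 and 42.7 TPM in LS411N-BR. No groups overlapped within a line, and the difference was 0.76 (SE 0.056, limma adjusted p = 6.72e-06). FABP2, an intestinal fatty acid-binding protein, was at most 0.16 TPM in LS411N and went from 2.10, 2.42 and 2.27 TPM to 5.001, 4.18 and 4.90 TPM in LS411N-BR. SLC26A3, the chloride-bicarbonate exchanger of the colonic surface, was at most 0.12 TPM in LS411N and went from 0.449, 0.691 and 0.606 TPM to 2.94, 2.26 and 2.29 TPM in LS411N-BR. Its difference of 1.03 on the log2(TPM + 1) scale became -0.59 as a log2 ratio of fold changes without a pseudocount, so its direction rests on the pseudocount. GUCA2A, which encodes guanylin, rose in both lines, 4.99-fold in LS411N and 4.88-fold in LS411N-BR, with a difference of 0.76 (limma adjusted p = 0.00674) that became -0.033 without a pseudocount. Outside the rule for named genes, and chosen after their values were seen, the bile salt transporter subunit SLC51B and the intestinal homeobox gene ISX had differences of 1.36 and 1.10 (limma adjusted p = 1.67e-05 and 0.000125).

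The differences of CEACAM7 and MUC17 rested on the scale. CEACAM7, a colonocyte adhesion molecule, was at 0.0861, 0.0479 and 0.0599 TPM in untreated and 0.351, 0.405 and 0.417 TPM in treated LS411N, and at 2.87, 2.99 and 3.24 TPM in untreated and 14.6, 13.1 and 12.8 TPM in treated LS411N-BR. The difference of response was 1.46 (SE 0.083, limma adjusted p = 9.8e-07), yet the fold change was higher in LS411N, at 6.05 against 4.45, from a level far below 1 TPM. MUC17, a transmembrane mucin of the brush border, had a difference of 1.24 (SE 0.1, limma adjusted p = 1.6e-05) and nearly equal fold changes of 4.53 and 4.42. It was at most 0.38 TPM in LS411N and reached 5.09 to 6.46 TPM in treated LS411N-BR.

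Of the 4 members that shifted the other way, 3 rose in both lines. CEACAM6, an adhesion molecule often raised in colon tumours, went from 8.70, 8.26 and 8.10 TPM to 31.5, 31.1 and 31.4 TPM in LS411N and from 61.3, 55.9 and 61.0 TPM to 132, 126 and 131 TPM in LS411N-BR. It rose in both lines, 3.75-fold and 2.18-fold, with a difference of -0.67 (SE 0.059, limma adjusted p = 2.32e-05). FABP1, a fatty acid-binding protein, rose 5.56-fold in LS411N and 3.54-fold in LS411N-BR (difference -0.52, limma adjusted p = 0.0328). In both genes untreated LS411N-BR started from a higher level than untreated LS411N. KRT20, the keratin of differentiated colonic epithelium, rose 4.63-fold and 5.07-fold, and its difference of 0.35 missed the threshold (limma adjusted p = 0.0542).

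**Figure D2:**
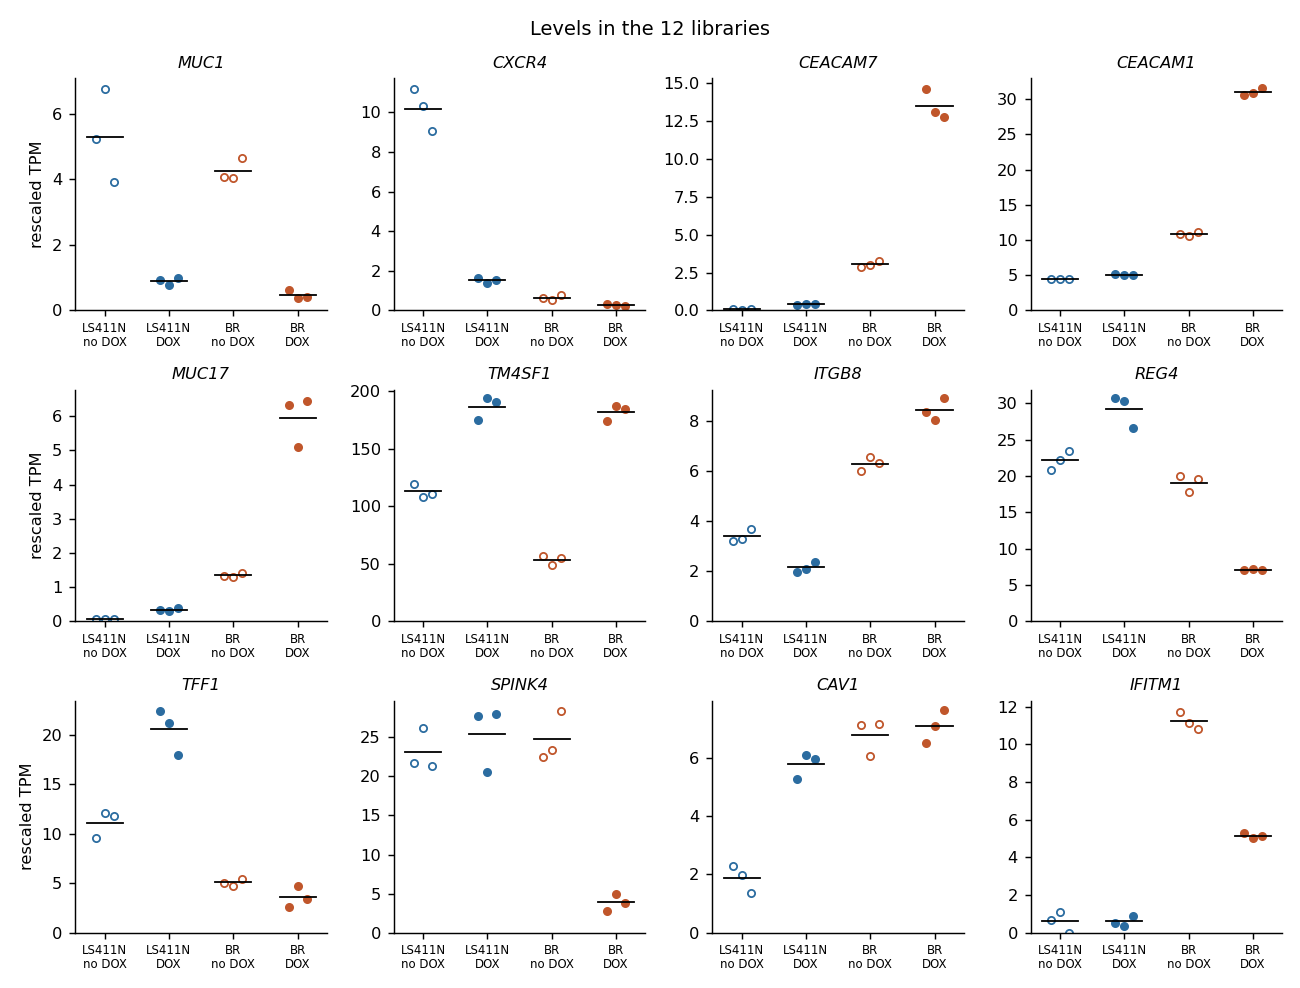
Each point is 1 library, with LS411N in blue and LS411N-BR (BR) in orange, open for untreated and filled for doxycycline, and the bar is the mean of 3 libraries. The vertical axis is rescaled TPM from 0. MUC1 fell in both lines, CEACAM1 and TM4SF1 rose further in LS411N-BR, REG4 and TFF1 rose in LS411N and fell in LS411N-BR, and SPINK4 was lower only in treated LS411N-BR.

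Secretory genes shifted the opposite way. Of 14 goblet and secretory members tested, 6 were called more negative in LS411N-BR (SPINK4, REG4, TFF1, ATOH1, SPDEF and KLK1) and 1 more positive (CREB3L1), with a median difference of -0.33. Over all genes the called shares were 6.39% and 4.37%. Within LS411N 7 of the 14 rose and 3 fell, whereas within LS411N-BR 4 rose and 8 fell. The negative count was 5 with TPM as deposited and between 5 and 8 when single libraries were left out.

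REG4, a secreted lectin of goblet and enteroendocrine cells at chr1:119794018-119811660, went in opposite directions. It was at 20.9, 22.2 and 23.5 TPM in untreated and 30.7, 30.4 and 26.6 TPM in treated LS411N. In LS411N-BR it was at 19.98, 17.8 and 19.6 TPM without and 7.12, 7.21 and 7.10 TPM with doxycycline. The untreated lines stood at similar levels, and in each line the treated libraries were separate from the untreated ones. REG4 rose 1.32-fold in LS411N and fell 2.68-fold in LS411N-BR, a difference of -1.69 (SE 0.086, limma adjusted p = 3.66e-07). SPINK4, a serine protease inhibitor of goblet cells at chr9:33218365-33248567, was at 21.7, 26.2 and 21.4 TPM in untreated and 27.7, 20.6 and 27.98 TPM in treated LS411N, where the groups overlapped. In LS411N-BR it went from 22.6, 23.4 and 28.4 TPM to 2.83, 4.95 and 3.85 TPM. The 6.40-fold fall was called in LS411N-BR only, and the difference was -2.55 (SE 0.22, limma adjusted p = 1.68e-05).

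TFF1, a trefoil peptide secreted with mucus, also changed in opposite directions. It rose from 9.57, 12.1 and 11.8 TPM to 22.5, 21.3 and 17.97 TPM in LS411N and fell from 5.05, 4.73 and 5.45 TPM to 2.58, 4.72 and 3.37 TPM in LS411N-BR. The groups did not overlap, though 1 treated LS411N-BR library lay just under the lowest untreated one. The difference was -1.27 (SE 0.2, limma adjusted p = 0.00138). The transcription factors ATOH1 and SPDEF of the secretory lineage were also more negative in LS411N-BR. ATOH1, which commits progenitors to the secretory fate, went from 0.225, 0.766 and 0.696 TPM to 0.194, 0.0420 and 0.0387 TPM in LS411N and from 2.33, 3.06 and 2.85 TPM to 0.130, 0.186 and 0.117 TPM in LS411N-BR. It fell in both lines, with log2 responses of -0.50 and -1.71 and a difference of -1.20 (limma adjusted p = 0.000826). SPDEF, which drives goblet cell maturation, rose in LS411N (0.29, limma adjusted p = 0.0447) and fell in LS411N-BR (-0.73, limma adjusted p = 8.79e-05).

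Other secreted products had called differences in both directions. REG1A, a regenerating lectin, was at most 0.57 TPM in LS411N and went from 48.9, 58.6 and 50.9 TPM to 5.18, 5.99 and 6.40 TPM in LS411N-BR. No group overlapped in LS411N-BR, where it fell 9.01-fold, and the difference was -2.68 (SE 0.17, limma adjusted p = 1.87e-06). With so little REG1A in LS411N that line could show no comparable fall on this scale. LYZ, the lysozyme gene, chosen after its values were seen, was abundant in both lines. It went from 2552, 2678 and 2652 TPM to 1333, 1328 and 1394 TPM in LS411N and from 168, 159 and 159 TPM to 43.9, 47.7 and 44.7 TPM in LS411N-BR. It fell in both, 1.94-fold and 3.57-fold, with a difference of -0.85 (SE 0.062, limma adjusted p = 6.5e-06). DEFA5 and REG3A, which encode Paneth cell antimicrobial proteins and were chosen after their values were seen, were at 0.14 TPM or below in LS411N. In LS411N-BR they went from 1.90, 2.59 and 2.03 TPM to 0.441, 0.107 and 0.676 TPM and from 1.76, 1.84 and 2.002 TPM to 0.187, 0.425 and 0.451 TPM. As a log2 ratio of fold changes without a pseudocount REG3A had 1.03, against -1.01 with it, so its direction rests on the pseudocount. PRSS2, a trypsinogen of the exocrine pancreas, was called more positive in LS411N-BR. It fell from 37.9, 49.3 and 48.4 TPM to 25.3, 21.5 and 22.2 TPM in LS411N, and was at most 0.68 TPM in LS411N-BR, where its change missed the threshold (difference 1.19, limma adjusted p = 0.00024).

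Most stem cell genes fell in both lines. Of 17 members tested, 6 were called more negative in LS411N-BR (OLFM4, EPHB3, SMOC2, MYB, CD44 and KCNE3) and 1 more positive (PROM1), while 12 of the 17 fell in each line. Shares called more negative and more positive over all genes were 6.39% and 4.37%. OLFM4, a secreted marker of crypt-base cells, went from 11.7, 13.8 and 12.6 TPM to 3.60, 3.21 and 3.91 TPM in LS411N and from 21.8, 23.2 and 19.7 TPM to 3.08, 2.95 and 2.90 TPM in LS411N-BR. It fell 3.56-fold and 7.24-fold (difference -0.92, SE 0.1, limma adjusted p = 0.000138). EPHB3, a receptor that positions cells along the crypt, went from 35.01, 37.1 and 36.1 TPM to 17.3, 17.0 and 16.4 TPM in LS411N and from 16.1, 17.3 and 15.9 TPM to 4.71, 4.96 and 4.75 TPM in LS411N-BR, falls of 2.13-fold and 3.42-fold. Neither gene had overlapping groups. SMOC2, a matricellular protein of crypt-base cells, fell steeply in both, from 95.0, 105 and 89.3 TPM to 5.54, 5.43 and 6.09 TPM and from 31.3, 34.5 and 32.1 TPM to 0.857, 0.625 and 0.683 TPM, with a difference of -0.43 (limma adjusted p = 0.0131). MYB, a transcription factor of progenitors, fell 3.26-fold and 4.41-fold. With TPM as deposited 1 member was called more negative, and without untreated LS411N replicate 3 the number was 10.

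PROM1 and CD44 did not follow the others. PROM1, which encodes the surface glycoprotein CD133, went from 37.6, 37.3 and 41.7 TPM to 26.4, 28.2 and 27.3 TPM in LS411N and was at 21.8, 22.9 and 22.4 TPM and 22.9, 21.4 and 22.9 TPM in LS411N-BR, where the groups overlapped. Its difference was 0.49 (SE 0.068, limma adjusted p = 0.000579). CD44, a hyaluronan receptor, rose 1.26-fold in LS411N, and its change of 0.056 in LS411N-BR missed the threshold. Among 20 WNT targets and feedback regulators tested, NKD1 and PROX1 were called more positive in LS411N-BR and TDGF1 and SOX4 more negative. Shares over all genes were 4.37% and 6.39%. The positive count of the WNT list was 4 without untreated LS411N replicate 3. The difference of PROX1, 0.31, became -0.069 without a pseudocount. NKD1, an inhibitor of WNT signalling, fell in LS411N from 3.70, 3.60 and 3.24 TPM to 1.78, 1.77 and 1.64 TPM, against 0.940, 1.11 and 1.16 TPM and 0.873, 0.976 and 0.885 TPM in LS411N-BR. SOX4, a transcription factor of progenitors, was at 53.1, 50.3 and 38.7 TPM and 50.6, 48.7 and 51.2 TPM in LS411N with overlapping groups and went from 28.1, 31.6 and 31.4 TPM to 19.0, 18.9 and 19.2 TPM in LS411N-BR (difference -0.74, limma adjusted p = 0.00244).

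**Figure D3:**
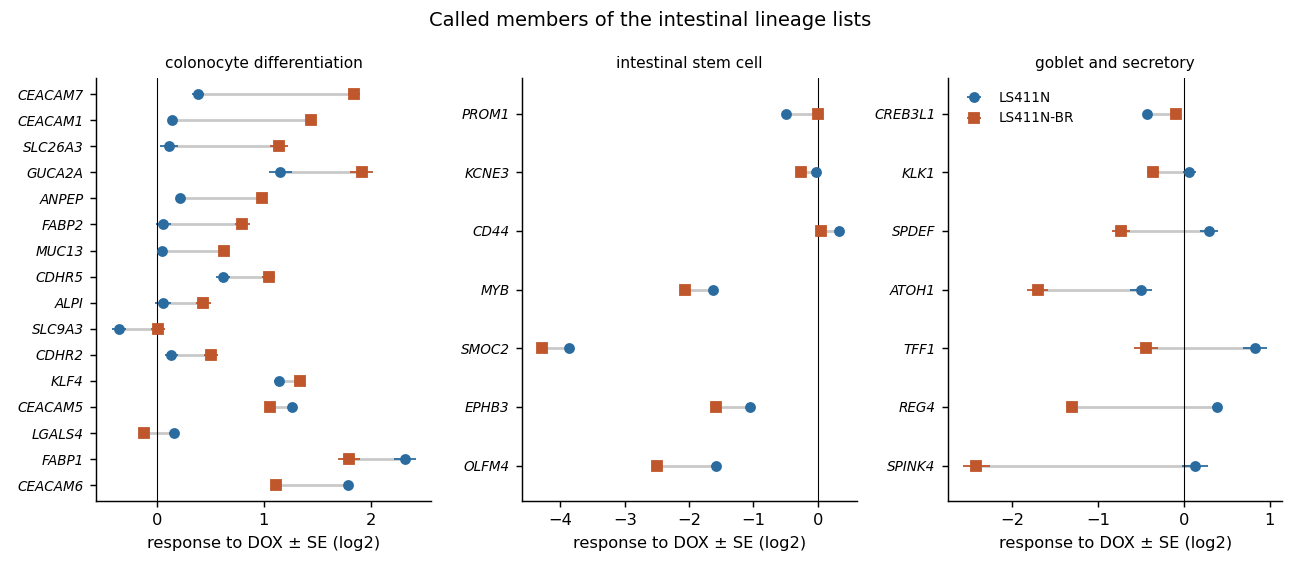
Each row is a called member of the colonocyte, stem cell or goblet list, with its log2 response to doxycycline in LS411N (blue circle) and LS411N-BR (orange square), the bars being 1 standard error from limma, and the grey line the difference between them. Colonocyte genes lie mostly further right in LS411N-BR and goblet genes further left. Of the genes called within both lines, REG4, TFF1 and SPDEF lie on opposite sides of 0, and every stem cell gene but CD44 at or to the left of 0 in both lines.

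All called genes of the amino acid stress list were more negative in LS411N-BR. When amino acids are short or the endoplasmic reticulum is loaded with unfolded protein, cells phosphorylate an initiation factor, translate the transcription factor ATF4 and induce enzymes of serine and cysteine metabolism, transporters and tRNA synthetases. Of 35 ATF4 targets and tRNA synthetases tested, 16 were called more negative in LS411N-BR and 0 more positive by limma, with 24 negative and 1 positive at an unadjusted p under 0.05. The median difference was -0.25. Over all genes 6.39% were called more negative and 4.37% more positive. Within LS411N 8 members rose and 6 fell, and within LS411N-BR 3 rose and 21 fell. With TPM as deposited 3 were called more negative, and leaving out single libraries gave 10 to 19, with 10 without untreated LS411N-BR replicate 1 or 2 or without treated LS411N-BR replicate 3.

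Serine and one-carbon enzymes were among the 16. PSAT1, an enzyme of serine synthesis, was at 213, 222 and 200.3 TPM and 209, 217 and 218 TPM in untreated and treated LS411N, where the groups overlapped, and went from 255, 244 and 263 TPM to 162, 173 and 164 TPM in LS411N-BR. The difference was -0.63 (SE 0.066, limma adjusted p = 8.19e-05). MTHFD2, a mitochondrial folate enzyme, went from 176, 188 and 192 TPM to 170.3, 169 and 169 TPM in LS411N and from 129, 126 and 126 TPM to 83.5, 88.8 and 81.9 TPM in LS411N-BR, a fall of 1.09-fold against 1.496-fold. PHGDH and SHMT2 of the same pathways had differences of -0.29 and -0.38. SLC7A11, which imports cystine, fell 1.21-fold in LS411N and 1.96-fold in LS411N-BR (difference -0.65, limma adjusted p = 0.00038). The stress regulators DDIT4, an inhibitor of mTOR complex signalling, and CTH, which makes cysteine, rose in LS411N, by 0.30 and 0.32 on the log2 scale. DDIT4 fell by 0.44 in LS411N-BR, and CTH there had a change of -0.12 that missed the threshold.

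Among the tRNA synthetases 6 were called. WARS, the tryptophanyl-tRNA synthetase, went from 43.4, 48.8 and 44.9 TPM to 21.5, 19.1 and 18.8 TPM in LS411N and from 69.8, 67.3 and 68.8 TPM to 16.7, 16.4 and 18.2 TPM in LS411N-BR. It fell 2.31-fold and 4.01-fold, a difference of -0.78 (SE 0.08, limma adjusted p = 7.8e-05). The other 5 (GARS, SARS, EPRS, MARS and NARS) fell in LS411N-BR by between 0.0997 and 0.36 on the log2 scale, while in LS411N only NARS was called, with a rise of 0.11.

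Called genes of the unfolded protein response, chaperones among them, were also all more negative in LS411N-BR. Of 23 members of the unfolded protein response tested, 7 were called more negative in LS411N-BR (HSPA5, DNAJB9, HERPUD1, XBP1, PDIA4, SEL1L and CREB3L2) and 0 more positive by limma, with 13 negative and 1 positive at an unadjusted p under 0.05. The called shares of all genes were 6.39% and 4.37%. A further 16 members were not called, among them HSP90B1, CALR and CANX. HSPA5, the major chaperone of the compartment at chr9:125234853-125241330, went from 136, 135 and 148 TPM to 170.2, 155 and 166 TPM in LS411N and from 174, 166 and 169 TPM to 143, 145 and 139.5 TPM in LS411N-BR. It rose 1.17-fold in LS411N and fell 1.19-fold in LS411N-BR, without overlap, a difference of -0.48 (SE 0.064, limma adjusted p = 0.000454). DNAJB9, a co-chaperone, went from 10.8, 11.1 and 10.7 TPM to 12.1, 11.6 and 12.1 TPM in LS411N and from 19.0, 18.2 and 19.2 TPM to 13.8, 14.5 and 14.2 TPM in LS411N-BR. It too rose in LS411N and fell in LS411N-BR, as did HERPUD1, a membrane protein of the degradation machinery. XBP1, a transcription factor of the response, was at 181, 184 and 162 TPM and 186, 189.9 and 191 TPM in LS411N, and went from 148, 142 and 144 TPM to 111, 114 and 110.2 TPM in LS411N-BR. With TPM as deposited none of the 7 was called, the number was 4 without treated LS411N-BR replicate 1 and 12 without untreated LS411N replicate 3.

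The promoters of some of these genes carry the textbook elements of the response, which are shown for the called members that hold them. Promoters from 250 bases before to 50 bases after the gene start were taken from RefSeq (GRCh38.p14) for 9182 of the 11674 genes tested. Each motif was searched on both strands. The endoplasmic reticulum stress element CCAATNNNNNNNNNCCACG, bound by NF-Y and ATF6, was in 14 of the 9182 promoters (0.152%), in 6 of 22 matched members of the unfolded protein response list and in 2 of its 7 called members. The element TGATGNAA, of the kind that ATF4 binds with a C/EBP partner, was in 159 promoters (1.73%), in 9 of 26 matched members of the ATF4 list but only 1 of its 10 matched called members, NARS, and in HERPUD1. These matches describe the sequence and do not show use of the element. In the lines that follow capitals mark the match.
HSPA5 (chr9:125241376-125241424, strand minus): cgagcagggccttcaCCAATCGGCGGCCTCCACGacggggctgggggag
XBP1 (chr22:28800588-28800636, strand minus): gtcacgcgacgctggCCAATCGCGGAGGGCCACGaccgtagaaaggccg
HERPUD1 (chr16:56931951-56931988, strand plus): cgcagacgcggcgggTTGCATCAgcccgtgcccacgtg
NARS (chr18:57621800-57621837, strand minus): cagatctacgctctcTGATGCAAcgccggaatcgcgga

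**Figure D4:**
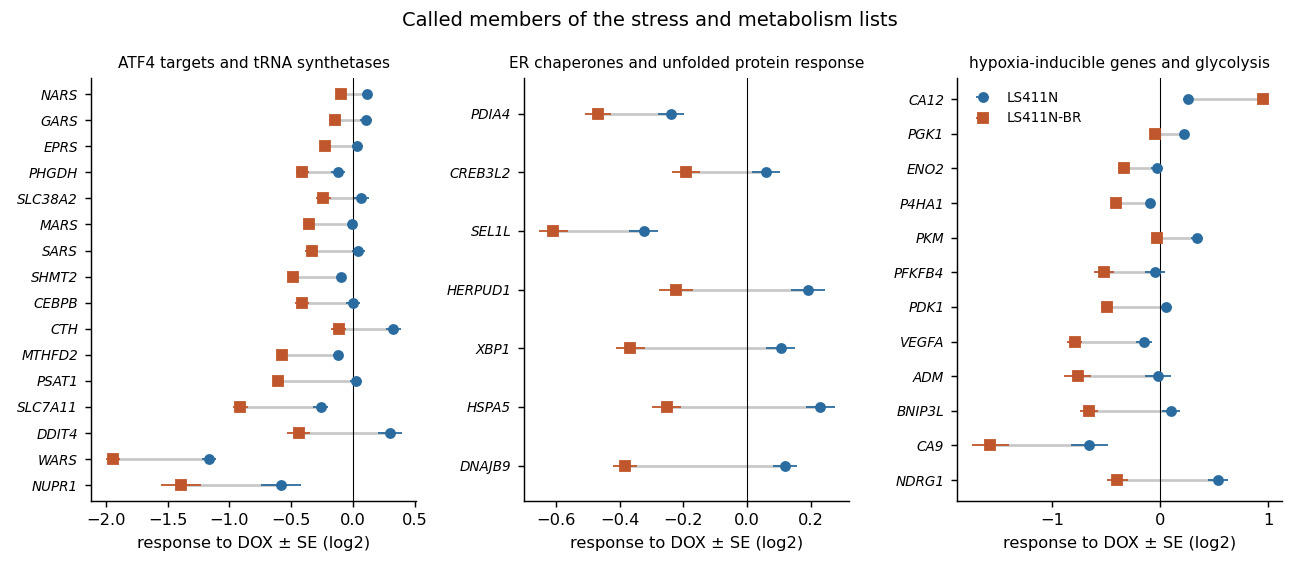
Each row is a called member of the ATF4, endoplasmic reticulum or hypoxia list, with its log2 response to doxycycline in LS411N (blue circle) and LS411N-BR (orange square) and bars of 1 standard error from limma. All rows but CA12 have the LS411N-BR response to the left of the LS411N response. Of the genes called within both lines, DDIT4, NARS, HSPA5, DNAJB9, HERPUD1 and NDRG1 lie on opposite sides of 0.

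Hypoxia-inducible and glycolytic genes shifted likewise. Of 33 tested, 11 were called more negative in LS411N-BR (NDRG1, CA9, BNIP3L, ADM, VEGFA, PDK1, PFKFB4, PKM, P4HA1, ENO2 and PGK1) and CA12 alone more positive. Over all genes 6.39% were called more negative and 4.37% more positive. Within LS411N 10 members of the list rose and 7 fell, and within LS411N-BR 7 rose and 18 fell. VEGFA, the endothelial growth factor, was at 69.8, 72.6 and 56.3 TPM and 57.2, 59.8 and 61.0 TPM in LS411N, where the groups overlapped, and went from 34.9, 33.9 and 35.01 TPM to 19.3, 20.1 and 19.3 TPM in LS411N-BR. The difference was -0.64 (SE 0.1, limma adjusted p = 0.00148). PDK1, which restrains pyruvate entry into mitochondria, was likewise called only in LS411N-BR, from 11.5, 11.5 and 11.8 TPM to 7.43, 8.502 and 8.05 TPM. NDRG1, a stress-responsive gene, rose from 10.03, 11.9 and 9.69 TPM to 15.6, 15.9 and 15.4 TPM in LS411N and fell from 29.2, 33.1 and 30.4 TPM to 21.3, 27.9 and 21.1 TPM in LS411N-BR, a difference of -0.93 (SE 0.13, limma adjusted p = 0.000826). Its groups did not overlap in either line. CA9, a carbonic anhydrase and common hypoxia marker, fell 1.74-fold in LS411N and 3.42-fold in LS411N-BR, whereas the related CA12 rose 1.23-fold and 2.07-fold. The negative count was 4 with TPM as deposited and between 8 and 12 when single libraries were left out.

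Genes of the antioxidant response showed 8 more negative and 2 more positive calls among 30 tested NRF2 targets. The shares of all genes were 6.39% and 4.37%. GPX2, a glutathione peroxidase of the gut, was at 86.0, 88.5 and 85.4 TPM and 88.4, 91.1 and 81.1 TPM in LS411N with overlapping groups and went from 99.4, 94.9 and 100.1 TPM to 68.0, 67.5 and 69.2 TPM in LS411N-BR. The difference was -0.52 (SE 0.061, limma adjusted p = 0.000198). AKR1B10, an aldo-keto reductase, rose in both lines, 4.72-fold and 2.10-fold. NFE2L2, which encodes NRF2 itself, fell 1.40-fold and 1.69-fold (difference -0.27, limma adjusted p = 0.00341). FTH1, the ferritin heavy chain, rose 1.29-fold in LS411N, with a change of 0.057 in LS411N-BR that missed the threshold. The positive members were HMOX1, heme oxygenase, and SLC6A6, a taurine transporter, and 1 of them was left without any library other than untreated LS411N replicate 3, treated LS411N replicate 1 or untreated LS411N-BR replicate 1. With TPM as deposited 2 members were called more negative, and the number was 14 without untreated LS411N replicate 3 and 5 without untreated LS411N-BR replicate 1 or 3 or treated LS411N-BR replicate 1.

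Drug efflux and detoxification genes divided, with 4 more positive and 3 more negative calls among 18 tested, the positive count being 2 without any 1 of the treated LS411N-BR libraries. Over all genes 4.37% were more positive and 6.39% more negative. ABCG2, an efflux transporter, went from 9.68, 9.64 and 9.14 TPM to 17.98, 20.2 and 19.5 TPM in LS411N and from 20.3, 21.7 and 21.5 TPM to 52.9, 52.7 and 54.0 TPM in LS411N-BR. It rose 2.03-fold and 2.51-fold without overlap (difference 0.34, SE 0.064, limma adjusted p = 0.00442). ABCB1, which encodes P-glycoprotein, had a difference of 0.76, but was at most 0.16 TPM in LS411N and had the higher fold change there. UGT1A1, a bilirubin-conjugating enzyme whose locus shares exons among several genes, went from 0.342, 0.462 and 0.629 TPM to 1.39, 1.32 and 1.29 TPM and from 2.08, 2.43 and 2.34 TPM to 9.17, 7.73 and 7.51 TPM. GSTP1, a glutathione transferase, was at 693, 684 and 698 TPM and 702, 738 and 676 TPM in LS411N with overlapping groups, and fell 1.24-fold in LS411N-BR (difference -0.33, limma adjusted p = 0.00244).

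Histone genes had the highest share of called members of all 33 lists. Of 19 tested, 12 were called more negative in LS411N-BR and 0 more positive by limma, with 16 negative and 0 positive at an unadjusted p under 0.05, and the median difference was -0.40. Over all genes 6.39% were called more negative and 4.37% more positive. Within LS411N 16 of the 19 histone genes fell and 2 rose, and within LS411N-BR 18 fell and 1 rose. HIST1H2BG, a core histone gene, went from 267, 229 and 250.6 TPM to 155, 157 and 147 TPM in LS411N and from 447, 416 and 437 TPM to 174, 159 and 163 TPM in LS411N-BR. It fell 1.63-fold and 2.62-fold without overlap, a difference of -0.69 (SE 0.08, limma adjusted p = 0.000175). HIST1H2BD went from 813, 782 and 738 TPM to 617, 647 and 624 TPM and from 492, 467 and 446 TPM to 262, 267 and 261 TPM. The linker histone H1F0 rose in LS411N, from 126, 142 and 109.9 TPM to 167, 153 and 155 TPM, and fell in LS411N-BR, from 99.9, 96.1 and 105 TPM to 74.3, 73.9 and 69.0 TPM (difference -0.80, limma adjusted p = 0.000408). Clustered histone genes are near-identical and short, and no source used here states how reads were split among them, so single members are uncertain. How fully the mRNA libraries captured histone transcripts was not tested. The short RNA share of the libraries, 46.4 to 57.4% and 51.2 to 55.3% in untreated and treated LS411N and 51.7 to 53.6% and 46.9 to 50.8% in untreated and treated LS411N-BR, was lower in each treated than in each untreated LS411N-BR library, and its part in the result was not tested. With TPM as deposited 2 histone genes were called more negative.

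The histone promoters are shown for a shared letter pattern. The CCAAT box, the NF-Y element that is also the first part of the stress element above, was in all 9 called histone genes with a RefSeq promoter, in 13 of 15 matched histone genes tested, and in 3438 of the 9182 promoters (37.4%). It was in 36.7% of the matched promoters of genes more positive in LS411N-BR and in 38.1% of those more negative, close to the share of all promoters. The RefSeq start lay within 60 bases of the GENCODE 29 start in 7 of the 9 called genes, 2043 bases upstream of it in HIST1H3D and 6114 bases downstream in H3F3B. Capitals mark it, or its reverse complement, in 2 examples.
HIST1H2BJ (chr6:27132856-27133020, strand minus): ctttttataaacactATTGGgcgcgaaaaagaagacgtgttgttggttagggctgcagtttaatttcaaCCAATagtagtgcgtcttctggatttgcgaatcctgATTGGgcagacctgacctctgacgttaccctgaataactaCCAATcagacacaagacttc
HIST1H2BD (chr6:26157939-26158067, strand plus): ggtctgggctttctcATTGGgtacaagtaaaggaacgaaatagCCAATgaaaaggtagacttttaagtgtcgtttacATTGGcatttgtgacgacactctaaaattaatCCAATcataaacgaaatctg

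Of all genes tested 4.37% were more positive and 6.39% more negative, and the counts among proliferation genes were near these shares. Of 44 DNA replication genes tested, RFC3, RRM2, CDC45 and TK1 were called more negative in LS411N-BR and 0 more positive by limma (11 negative and 2 positive at an unadjusted p under 0.05). Within LS411N 16 fell and 6 rose, and within LS411N-BR 25 fell and 2 rose. RFC3, a subunit of the clamp loader, fell 1.10-fold in LS411N and 1.42-fold in LS411N-BR (difference -0.36, limma adjusted p = 0.00182). RRM2, the regulated subunit of ribonucleotide reductase, rose from 119, 110.0 and 128 TPM to 136, 147 and 151 TPM in LS411N and was at 129, 134 and 135 TPM and 127, 123 and 127 TPM in LS411N-BR. Of 35 mitosis and spindle genes, 29 fell in LS411N and 25 in LS411N-BR, against 20.9% and 27.1% of all genes. Among them only BUB1B, a checkpoint kinase, and KIF20A, a mitotic kinesin, had a called difference, both more positive in LS411N-BR. The 4 negative calls among replication genes became 10 without untreated LS411N replicate 3, 2 without untreated LS411N-BR replicate 1 or 2 or treated replicate 3, and 0 with TPM as deposited.

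Called differences were found among ERK output genes and, in 1 case, within the cascade itself. Of 30 tested genes of the RAS, RAF, MEK and ERK cascade and its adaptors, RASA2, a RAS GTPase-activating protein, was called more positive (0.24, limma adjusted p = 0.0292), a share near the 4.37% of all genes, and 0 more negative by limma, with 6 positive and 4 negative at an unadjusted p under 0.05. Among 27 ERK output genes 3 were more positive (HMGA2, DUSP4 and KCNN4) and 5 more negative (SPRY2, SPRED1, PHLDA1, SH2B3 and ELF3), 8 called members where 10.8% of all genes were called. DUSP4, an ERK phosphatase, went from 5.29, 5.41 and 5.47 TPM to 6.48, 6.503 and 6.62 TPM in LS411N and from 1.36, 1.17 and 1.30 TPM to 2.56, 2.61 and 2.67 TPM in LS411N-BR. It rose 1.21-fold and 2.04-fold (difference 0.43, SE 0.063, limma adjusted p = 0.000955). SPRY2, a feedback inhibitor of receptor signalling, went the other way, from 12.2, 12.8 and 11.9 TPM to 5.49, 6.12 and 5.97 TPM and from 19.0, 19.3 and 18.6 TPM to 6.87, 7.24 and 7.497 TPM, a fall of 2.10-fold and 2.63-fold. The groups of both genes were separate in each line. HMGA2, an architectural chromatin protein, rose from 7.86, 7.16 and 7.18 TPM to 10.7, 11.96 and 11.7 TPM and from 8.44, 8.23 and 9.02 TPM to 19.1, 18.9 and 19.9 TPM. Without untreated LS411N replicate 3, 11 ERK output members were called more positive, and with TPM as deposited none was called more negative.

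Called ligands, adhesion and matrix genes were mostly more negative in LS411N-BR. Over all genes 6.39% were called more negative and 4.37% more positive. Of 15 growth factor ligands tested, GDF15, VEGFA, FGFBP1 and FGF9 were more negative in LS411N-BR and FGF2 more positive. The positive count was 0 without any library other than untreated LS411N replicates 2 and 3, treated LS411N replicate 3 and untreated LS411N-BR replicate 3. GDF15, a stress-induced cytokine, went from 113, 114 and 112 TPM to 176, 188 and 168 TPM in LS411N, without overlap, and was at 60.02, 53.6 and 60.9 TPM and 56.3, 60.3 and 61.4 TPM in LS411N-BR, with overlap. The rise in LS411N was 1.57-fold, and the difference was -0.61 (SE 0.077, limma adjusted p = 0.000302). Of 22 hemidesmosome, integrin and protease genes 6 were more negative and DST more positive. COL17A1, a hemidesmosome collagen, rose from 5.45, 5.56 and 5.89 TPM to 27.4, 25.1 and 24.8 TPM in LS411N and from 10.6, 9.91 and 10.5 TPM to 30.5, 30.2 and 30.6 TPM in LS411N-BR, 4.57-fold against 2.94-fold. MMP1, an interstitial collagenase, rose 8.76-fold and 2.92-fold (difference -0.82, limma adjusted p = 4.82e-05). In both genes untreated LS411N-BR was above untreated LS411N, and the treated levels were closer.

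Annexins and S100 proteins rose broadly in LS411N, with 18 of 19 tested, and in LS411N-BR with 13. Of all genes 24.4% rose in LS411N and 26.8% in LS411N-BR. ANXA1, a phospholipid-binding protein, rose from 20.1, 21.2 and 22.0 TPM to 115, 103 and 119 TPM in LS411N and from 28.5, 22.8 and 27.8 TPM to 83.5, 88.1 and 88.3 TPM in LS411N-BR. Its difference was -0.67 (SE 0.11, limma adjusted p = 0.00148), and 4 other members were also more negative in LS411N-BR, a count that fell to 2 or 3 in all without any 1 treated LS411N library, untreated LS411N-BR replicate 1 or 3, or treated LS411N-BR replicate 1 or 3. The other way went 3 members, among them ANXA13, an intestinal annexin, which rose 1.34-fold and 2.33-fold. Over all genes 4.37% were more positive and 6.39% more negative. Among junction proteins the scaffolds TJP1 and TJP3 were more positive in LS411N-BR. TJP1 rose from 14.9, 15.3 and 15.5 TPM to 18.5, 17.4 and 17.6 TPM and from 16.7, 16.7 and 16.8 TPM to 24.3, 23.4 and 24.9 TPM (difference 0.29, limma adjusted p = 0.00389), while the desmosomal cadherin DSG2 was more negative (-0.26).

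The most positive difference of all belonged to CXCR4, the chemokine receptor for CXCL12 at chr2:136114349-136118165. It was at 11.2, 10.3 and 9.03 TPM in untreated and 1.65, 1.40 and 1.51 TPM in treated LS411N. In LS411N-BR it was at 0.646, 0.501 and 0.756 TPM without and 0.310, 0.257 and 0.223 TPM with doxycycline. It fell in both lines, from an expressed level in LS411N and from below 1 TPM in LS411N-BR. The fall was 6.69-fold in LS411N and 2.41-fold in LS411N-BR, a difference of 1.78 (SE 0.11, limma adjusted p = 1.87e-06). TNFRSF11B, the decoy receptor osteoprotegerin, fell from 9.36, 8.38 and 9.10 TPM to 1.98, 2.81 and 1.81 TPM in LS411N and was at 2.14, 2.20 and 2.34 TPM and 1.95, 2.14 and 2.33 TPM in LS411N-BR, with overlap. LCK, a SRC-family kinase best known in T cells, fell from 5.50, 6.08 and 5.26 TPM to 0.615, 0.626 and 0.609 TPM in LS411N and from 0.753, 0.551 and 0.577 TPM to 0.0130, 0.00929 and 0.0234 TPM in LS411N-BR. The difference of LCK was 1.35 (limma adjusted p = 2.96e-06), but its fold reduction was larger in LS411N-BR, 41.2 against 9.10, so its direction rests on the pseudocount.

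Chemokine and interferon genes were mixed. CXCL1 and CXCL3, neutrophil chemokines, rose in LS411N, 1.57-fold and 1.45-fold, and neither change was called in LS411N-BR, where both were at most 1.48 TPM. Among 19 interferon-stimulated genes tested, OASL, ISG15 and IFI6 were more positive in LS411N-BR and OAS1, OAS3 and IFITM1 more negative. Over all genes 4.37% were called more positive and 6.39% more negative. ISG15, a ubiquitin-like modifier, rose from 4.26, 3.67 and 5.31 TPM to 7.04, 8.08 and 7.51 TPM in LS411N and from 6.38, 5.76 and 6.52 TPM to 18.5, 15.4 and 18.2 TPM in LS411N-BR (difference 0.68, SE 0.14, limma adjusted p = 0.00806). IFITM1, a membrane protein that restricts viral entry, was at 1.10 TPM or below in LS411N and fell from 11.7, 11.2 and 10.8 TPM to 5.28, 5.02 and 5.11 TPM in LS411N-BR. The interferon list thus had equal numbers in each direction in the main fit, with a median difference of 0.056. Leaving out single libraries gave 3 to 4 more positive and 2 to 4 more negative members.

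Other large differences concerned genes of varied function. PKIB, an inhibitor of protein kinase A, rose from 1.54, 1.45 and 2.05 TPM to 8.27, 8.45 and 9.01 TPM in LS411N and from 2.10, 1.67 and 2.22 TPM to 22.3, 23.9 and 24.6 TPM in LS411N-BR, 5.11-fold against 11.8-fold. TM4SF1, a tetraspanin-like surface protein, rose from 119, 108 and 111 TPM to 175, 194 and 190.2 TPM in LS411N and from 57.0, 49.0 and 55.1 TPM to 174, 187 and 184 TPM in LS411N-BR. Treated levels of TM4SF1 were similar side by side, and the untreated level was lower in LS411N-BR. The difference was 1.03 (SE 0.085, limma adjusted p = 1.6e-05), and the part of the untreated level in it was not tested. CAV1, the scaffold of caveolae, showed the reverse, rising from 2.28, 1.99 and 1.37 TPM to 5.29, 6.12 and 5.95 TPM in LS411N, to about the level that LS411N-BR had in both groups, 7.15, 6.06 and 7.18 TPM and 6.52, 7.09 and 7.66 TPM. Its difference was -1.19 (SE 0.15, limma adjusted p = 0.00026).

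CTSE, a gastric and intestinal aspartic protease, rose 2.73-fold in LS411N, from 2.64, 2.66 and 3.23 TPM to 7.94, 8.41 and 6.92 TPM, and was at most 0.29 TPM in LS411N-BR. IL1R2, a decoy receptor for interleukin 1, rose 2.14-fold in LS411N, and its change of -0.22 in LS411N-BR missed the threshold (limma adjusted p = 0.0578). MAGED1, an adaptor protein, was at most 0.53 TPM in LS411N and fell from 6.84, 7.46 and 6.80 TPM to 2.88, 2.61 and 2.82 TPM in LS411N-BR. SERPINI1, the serine protease inhibitor neuroserpin, was at most 0.84 TPM in LS411N and fell 3.34-fold in LS411N-BR. The most negative difference in the data was that of the uncharacterized LOC105376271, at 10.4, 6.31 and 8.61 TPM in untreated LS411N-BR and listed at 0 in all 3 treated libraries. In these genes the line with the called change was the line with the higher level, apart from IL1R2, which was similar in both.

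Genes called in opposite directions were few but distinct. ITGB8, the integrin subunit that activates latent TGF-beta, fell from 3.21, 3.28 and 3.68 TPM to 1.99, 2.09 and 2.39 TPM in LS411N and rose from 6.004, 6.56 and 6.32 TPM to 8.37, 8.04 and 8.91 TPM in LS411N-BR. The groups were separate in both lines, and the difference was 0.85 (SE 0.086, limma adjusted p = 6.94e-05). OTUD3, a deubiquitinase, fell 1.498-fold in LS411N and rose 1.09-fold in LS411N-BR, and PARM1, a mucin-like membrane protein, fell 1.41-fold and rose 1.15-fold. In the other direction, APOBEC1, the cytidine deaminase that edits apolipoprotein B mRNA in the intestine, rose from 2.89, 3.34 and 2.03 TPM to 4.46, 4.85 and 4.94 TPM in LS411N and fell from 19.0, 17.97 and 17.8 TPM to 13.9, 13.2 and 14.7 TPM in LS411N-BR. ALDH3A1, an aldehyde dehydrogenase, rose from 28.8, 28.8 and 26.7 TPM to 37.5, 39.4 and 35.4 TPM and fell from 5.46, 4.71 and 4.52 TPM to 2.68, 3.45 and 2.98 TPM. Their differences were -0.996 and -0.95 (limma adjusted p = 0.000591 and 0.000125).

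In 4 lists no member had a called difference by limma. These were the 53 cytosolic ribosomal proteins (1 positive and 5 negative at an unadjusted p under 0.05), the 39 chromatin regulators (2 and 3), the 29 genes of cholesterol and fatty acid synthesis (2 and 3) and the 16 genes of MHC class I (0 and 0). Their median differences were -0.068, -0.013, 0.043 and -0.038. Of the 53 cytosolic ribosomal protein genes, 21 fell in LS411N and 34 in LS411N-BR, against 20.9% and 27.1% of all genes, and 0 rose in either line by limma. Mitochondrial ribosomal proteins had 4 more negative and 0 more positive calls among 48 (12 and 0 at an unadjusted p under 0.05), a share near the 6.39% of all genes, and 1 or 2 without untreated LS411N replicate 2, treated LS411N replicate 3, untreated LS411N-BR replicate 1 or 2 or treated LS411N-BR replicate 1 or 3.

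**Figure D5:**
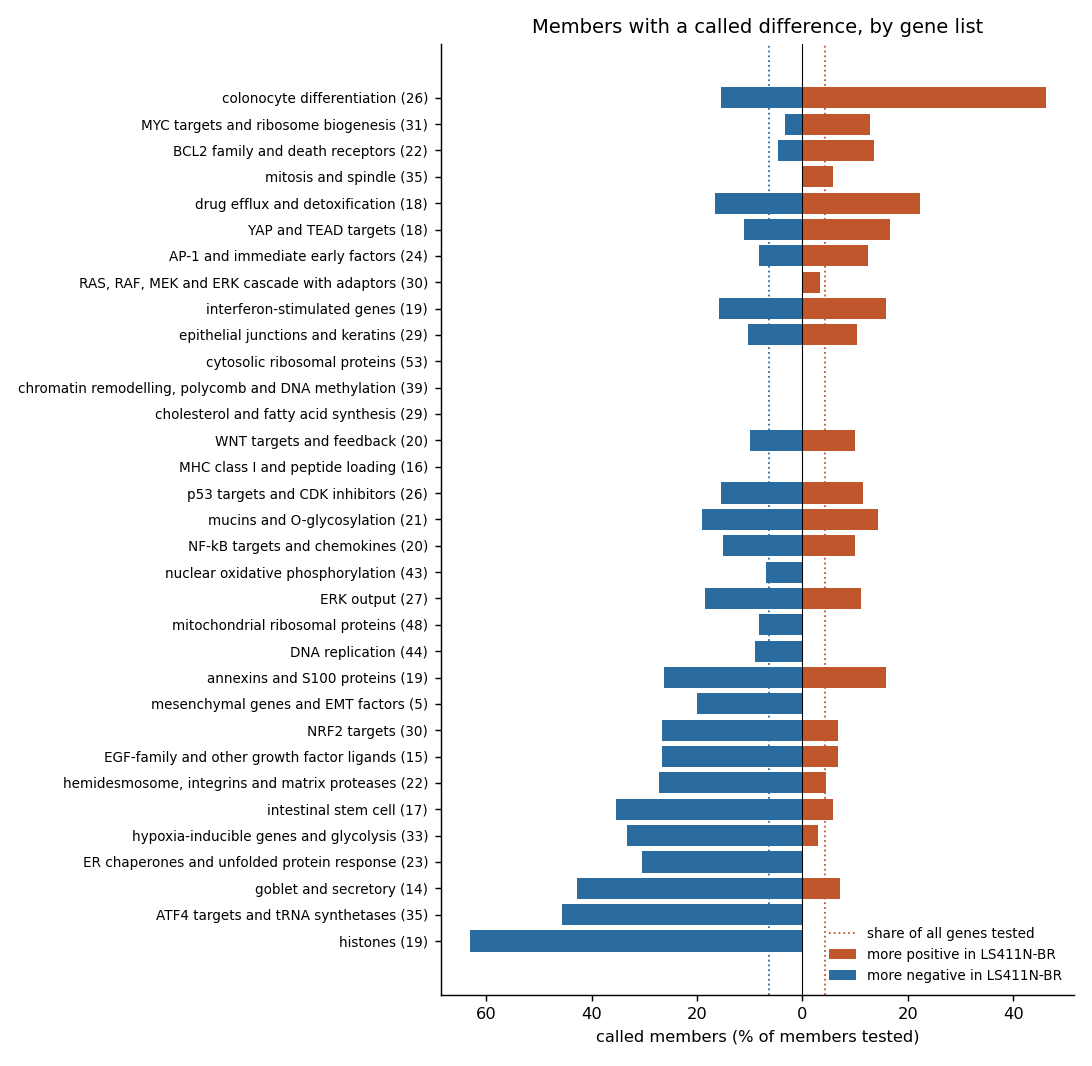
Each row is 1 of the 33 gene lists, with the number of members tested in parentheses, and bars give the percent of those members called more positive (right, orange) or more negative (left, blue) in LS411N-BR. Dotted lines mark the 4.37% and 6.39% of all genes tested. The colonocyte list extends furthest to the right and the histone, ATF4 and goblet lists furthest to the left.

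Epithelial markers were expressed in all groups. Of 9 epithelial markers 8 reached a mean of 1 TPM in all 4 groups, with summed levels of 2333 to 2544 and 3042 to 3270 TPM in untreated and treated LS411N and 2912 to 3061 and 3697 to 3825 TPM in untreated and treated LS411N-BR. CDH17, an intestinal cadherin, was the only epithelial marker with a called difference (-0.42, limma adjusted p = 0.0075). Without LYZ, which epithelial secretory cells also make, the immune markers PTPRC, CD3E and CD14 summed to at most 0.14 TPM in any library. The endothelial markers summed to at most 0.035 TPM, and the fibroblast markers to at most 3.54 TPM, most of it LUM.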

How the data were processed

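RNA from 12 cultures of the 2 lines was made into TruSeq Stranded mRNA libraries, per the labels' protocols. The authors deposited TPM per gene in 1 table per line. STAR, DESeq2 and GRCh38 are named without roles, per the submitters' processing notes, and no source used here gives the program and annotation behind the TPM. TPM hold no read totals, so the depth of each library is unknown and no counting interval is given. Every sample column was mapped by its name.

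The 25540 genes of both tables were kept (the LS411N table lists 133 more, not analysed here), and each table was rescaled by its own median-of-ratios factors (0.889 to 1.16). Genes that reached 1 TPM in 3 or more libraries were fitted on log2(TPM + 1) with limma 3.58.1 in R 4.3.3 (4 group means, eBayes with an intensity trend, two-sided tests of the response in each line and of their difference), with Benjamini-Hochberg adjustment over all 11674 genes. The procedure was tested on simulated data. Named genes were MUC1, the 12 largest called differences in each direction with a group mean of at least 5 TPM, the 4 largest in each direction called in opposite directions, and up to 3 called members, by smallest adjusted p, of each of the 26 lists with at least 3 called members, and exceptions are marked in the text. A few of these genes and 1 marker are not reported here. The comparison, the 33 gene lists and the markers were chosen with earlier results of these data known. Alternatives were another pseudocount (0.1 TPM), 3 filters, TPM as deposited, scaling over all 12 libraries, no trend, robust moderation, library weights, a replicate block and leaving out each library. The pseudocount of 0.1 TPM with the stricter filter and ratios without a pseudocount were added after seeing the data. A fold change in the text is the ratio of the group means of rescaled TPM. Coordinates are from GENCODE 29 on GRCh38. Near-identical paralogs (clustered histones, REG1A, PRSS2, IFITM1, CEACAM and UGT1A genes) and antisense genes such as CDC37L1-AS1 may share reads with their neighbours.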

Additional observations from a re-analysis of the deposited data

Results flagged for a closer look

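Apart from MUC1, the rule took only genes whose difference of response was called, so the other 100 named genes differ between the lines by that choice. Over all 11674 genes tested 1256 (10.8%) were called. The values given are differences of response on the log2(TPM + 1) scale, LS411N-BR minus LS411N, each with a limma adjusted p under 0.05. No group had enough libraries for a check of single outlying libraries gene by gene. Over all genes untreated LS411N replicate 3 stood apart, as described above. Its library quality weight was 0.129, where the remaining libraries had 0.721 to 2.00.

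Of the genes reported with a group mean of at least 5 TPM, the largest positive differences were 1.78 for CXCR4, 1.61 for TNFRSF11B, 1.46 for CEACAM7, 1.35 for LCK, 1.29 for CEACAM1, 1.24 for MUC17, 1.20 for CDC37L1-AS1, 1.20 for PKIB, 1.19 for PRSS2, 1.11 for C10ORF99 and 1.03 for TM4SF1. The largest negative ones were -2.93 for LOC105376271, -2.68 for REG1A, -2.55 for SPINK4, -1.69 for REG4, -1.36 for SERPINI1, -1.27 for TFF1, -1.19 for CAV1, -1.15 for MAGED1, -1.14 for CTSE, -1.12 for IGFL2, -1.11 for IL1R2 and -1.05 for IFITM1. Among genes called in opposite directions, besides REG4 and TFF1, they were 0.85 for ITGB8, 0.62 for OTUD3, 0.62 for PARM1, 0.61 for LINC02313, -0.996 for APOBEC1 and -0.95 for ALDH3A1. The difference of C10ORF99 became 0.13 as a log2 ratio of fold changes without a pseudocount. Its highest group mean in the lower line was 0.61 TPM, so the size of its difference rests on the pseudocount.

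In the intestinal lists, ANPEP had 0.76 and MUC13 0.58, while ATOH1 had -1.20 and the sialyltransferase ST6GALNAC1 -0.72. Stem cell and WNT genes gave -0.92 for OLFM4, -0.54 for EPHB3, 0.49 for PROM1, 0.61 for NKD1, -0.64 for TDGF1 and -0.74 for SOX4. Junction and matrix genes gave 0.29 for TJP1, 0.30 for TJP3, -0.26 for DSG2, -0.82 for MMP1, -0.54 for COL17A1 and -0.61 for PLAU. Annexins gave 0.69 for ANXA13, -0.67 for ANXA1 and -0.72 for ANXA10.

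Stress and metabolic genes gave -0.78 for WARS, -0.63 for PSAT1, -0.45 for MTHFD2, -0.50 for DNAJB9, -0.48 for HSPA5 and -0.47 for XBP1. Antioxidant and detoxification genes gave -0.52 for GPX2, -0.65 for SLC7A11, -0.74 for AKR1B10, 0.76 for ABCB1, 0.81 for UGT1A1 and -0.33 for GSTP1. Hypoxia genes gave 0.69 for CA12, -0.93 for NDRG1 and -0.54 for PDK1, and mitochondrial genes -0.34 for MRPL16, -0.26 for MRPS10, -0.32 for MRPS28, -0.23 for UQCRC1, -0.36 for NDUFS8 and -0.29 for COX5B. Histone and replication genes gave -0.69 for HIST1H2BG, -0.52 for HIST1H2BD, -0.80 for H1F0, -0.36 for RFC3, -0.35 for RRM2 and -0.26 for CDC45.

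Signalling genes gave 0.52 for HMGA2, 0.43 for DUSP4, 0.76 for KCNN4, -0.61 for GDF15, -0.64 for VEGFA and -0.59 for FGFBP1. Immediate early and YAP genes gave -0.42 for KLF10, -0.27 for KLF5, 0.44 for BTG2, -0.50 for AJUBA, 0.42 for LATS2 and 0.28 for TEAD1. Inflammatory and interferon genes gave -0.45 for CXCL1, -0.55 for CXCL3, 0.59 for OASL, 0.68 for ISG15 and -0.33 for OAS3. Cell death and nucleolar genes gave -0.26 for ZMAT3, 0.26 for CFLAR, -0.26 for BCL2L2, 0.42 for UTP20, 0.28 for NOP2 and -0.27 for WDR12.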

How the results depend on the processing

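The count of genes more positive in LS411N-BR, 510, became 162 with TPM as deposited and 1236 with library quality weights, and the count more negative, 746, became 85 and 1617. Leaving out 1 library gave 268 to 1022 and 415 to 1357. The other alternatives kept both counts within 1.5 times. The MUC1 difference was 0.013 with library weights and ranged from -0.29 to 0.016 when 1 library was left out, changing sign without untreated LS411N replicate 3, and it was called in none of the refits. As a ratio of fold changes without a pseudocount it was -0.62. The cause was not tested. Of the other 100 named differences, which were chosen as called, none changed sign in a refit. In 43 the call was lost with TPM as deposited, in 10 with a pseudocount of 0.1 TPM, and in 0 to 10 without 1 library. As ratios of fold changes without a pseudocount, 4 changed sign, with log2 values of -0.44 for CEACAM7, -2.18 for LCK, -0.037 for MUC17 and -1.63 for ABCB1. Another 22 kept their sign but moved by at least the SE of the difference times the square root of 3. LOC105376271, listed at 0 in a group, has no such value. The fit with a replicate block gave 402 more positive and 655 more negative genes. Same-numbered libraries correlated in their deviations from the group means by -0.013 to 0.19, so the numbers are not taken to pair them. Without read totals the precision of low TPM is unknown.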

Other observations

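Regulators of growth and survival outside the groups above were divided. The counts stand beside 4.37% of all genes called more positive and 6.39% called more negative. Among 24 AP-1 and immediate early factors tested, 3 were more positive in LS411N-BR (KLF4, NR4A1 and BTG2) and 2 more negative (KLF5 and KLF10), and the positive count ran from 1 to 11 when 1 library was left out, with 11 without untreated LS411N replicate 3 and 1 without any other library except untreated LS411N replicate 1. The negative count was 1 without any library other than untreated LS411N replicate 3, treated LS411N replicate 1 and treated LS411N-BR replicate 3. BTG2, an antiproliferative gene, was at 9.12, 9.79 and 9.49 TPM and 10.4, 9.20 and 9.76 TPM in untreated and treated LS411N, with overlap, and went from 8.22, 7.69 and 8.41 TPM to 11.8, 11.9 and 11.5 TPM in LS411N-BR. KLF10, a TGF-beta-induced repressor, rose 1.33-fold in LS411N, and its change of -0.061 in LS411N-BR missed the threshold. The YAP and TEAD list held members of the pathway as well as targets. Among its 18 genes tested, LATS2, TEAD1 and WWTR1 were more positive in LS411N-BR and AJUBA and F3 more negative. The negative count of this list was 1 without any library other than untreated LS411N replicate 3, treated LS411N replicate 1 and untreated LS411N-BR replicate 2. LATS2, a kinase of the Hippo pathway, rose from 2.88, 2.59 and 2.90 TPM to 4.70, 4.61 and 4.24 TPM in LS411N and from 2.30, 2.21 and 2.12 TPM to 5.06, 5.07 and 5.63 TPM in LS411N-BR.

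Of 26 p53 targets and CDK inhibitors, 3 were more positive (CDKN2B, TP53I3 and BTG2) and 4 more negative (GDF15, ZMAT3, GADD45B and DDB2), where 4.37% and 6.39% of all genes were called. The positive count was 5 without untreated LS411N replicate 3 and 1 without untreated LS411N-BR replicate 1 or 3 or treated LS411N-BR replicate 1. The negative count was 2 without untreated LS411N replicate 1 or any 1 treated LS411N library, and 1 without untreated LS411N-BR replicate 2 or treated LS411N-BR replicate 1 or 3. CDKN2B, a CDK4 and CDK6 inhibitor, rose 1.69-fold in LS411N and 3.44-fold in LS411N-BR. Of 22 BCL2 family and death receptor genes, CFLAR and MCL1 were among those more positive in LS411N-BR, and BCL2L2 was more negative. These calls rested on single libraries: the positive count was 1 without treated LS411N replicate 2 or 3 or any 1 untreated LS411N-BR library, and 0 without treated LS411N-BR replicate 1 or 3. For negative calls it was 3 without untreated LS411N replicate 3 and 0 without untreated LS411N replicate 1, treated LS411N replicate 2 or 3, any 1 untreated LS411N-BR library or treated LS411N-BR replicate 1. MCL1, a prosurvival member, rose 1.14-fold in LS411N-BR and was not called in LS411N (limma adjusted p of the difference = 0.0486). Of 31 MYC targets and ribosome biogenesis genes 4 were more positive and 1, WDR12, more negative. The positive count was 2 without treated LS411N replicate 2 or 3, untreated LS411N-BR replicate 1 or 3 or treated LS411N-BR replicate 1. Among the 4 more positive genes was UTP20, a nucleolar processing factor, which fell 1.20-fold in LS411N and rose 1.13-fold in LS411N-BR. Of 43 nuclear oxidative phosphorylation genes, NDUFS8, UQCRC1 and COX5B were more negative and 0 more positive by limma, with 10 and 0 at an unadjusted p under 0.05. That share is near the 6.39% of all genes, and the count was 7 without untreated LS411N replicate 3, 5 without treated LS411N-BR replicate 2 and 1 without treated LS411N-BR replicate 1. Of 21 mucin and O-glycosylation genes, MUC13, MUC17 and C1GALT1 were more positive and ST6GALNAC1, FUT3, GALNT3 and GCNT3 more negative. The direction of MUC17 rests on the pseudocount. Negative calls numbered 8 without untreated LS411N replicate 3 and 2 without any library other than that one, treated LS411N replicate 1 or 3, untreated LS411N-BR replicate 2 or treated LS411N-BR replicate 3. Of 5 mesenchymal genes tested, the fibronectin gene FN1 was more negative in LS411N-BR, where it was at most 0.10 TPM, and the difference of -0.49 became 0.083 without a pseudocount.

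The 133 genes listed for LS411N alone held 19.8 to 23.3% of the TPM of untreated and 19.7 to 23.9% of the TPM of treated LS411N libraries, ranges that overlapped.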
